A study of Mus musculus with 12 samples.

Results

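The YAP, TAZ and TEAD program was followed here through 9 genes: the coactivators Yap1 and Wwtr1 (the gene of TAZ), the DNA-binding partners Tead1, Tead2, Tead3 and Tead4, and the target genes Ctgf, Cyr61 and Amotl2. They were taken by name from the 28112 features of the authors' deposited table, in which all 9 are present, and set against the 23226 features that carry 1 gene name. RNA was sequenced from 3 tumor-derived mouse lines of small cell lung cancer (16T, KP1, KP22), all of genotype Trp53-/-;Rb1-/- and grown as floating spheres. In 16T and KP1, whose background is given as Nfib high, a vector with an shRNA to Nfib was compared with a control shRNA (shLuc). In KP22, given as Nfib low, a vector with Nfib cDNA was compared with the empty vector. Each of the 6 groups held 2 samples. The labels do not say whether these were separate cultures, so p-values measure only the spread between these samples, which may be technical. The authors' fit may pool that spread over all 3 lines, so a call in 1 line may rest partly on the others. The titles name a single Nfib shRNA, sh2, in both knockdown lines.

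In the Hippo pathway, the kinases encoded by Stk3, Stk4, Lats1 and Lats2 phosphorylate YAP and TAZ and keep them out of the nucleus. YAP and TAZ that reach the nucleus bind TEAD proteins, since they have no DNA-binding domain of their own, and switch on genes of growth, adhesion and matrix. In small cell lung cancer, cells of neuroendocrine type are known for low YAP1, which is found more in the non-neuroendocrine variants.

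The authors' deposited table gives, for each comparison, a log2 fold change with its standard error (± throughout) and an adjusted p. It holds no value per sample, so the depth of each library and the number of samples showing a direction are unknown here. The words rose and fell are used where the adjusted p of the authors' fit across all features was below 0.05, and such a gene is called. The direction of the comparisons, which the headings do not state, was read from Nfib. In the authors' deposited table Nfib stood at 47.2% of the control level in 16T, 40.0% in KP1 and 349% in KP22. Markers of cell types were read from means over all 12 libraries, which do not give the level in a single line. The 7 neuroendocrine markers examined (Insm1, Chga, Syp, Uchl1, Calca, Ncam1 and Nkx2-1) had mean normalized counts between 5290 and 25975 in the authors' deposited table. The 5 non-neuroendocrine markers were lower but mostly present, with Rest at 8.62, Hes1 at 103, Vim at 575, Cd44 at 842 and Notch2 at 881. The 4 leukocyte markers had means between 0 and 157, with Ptprc at 1.38 and Cd3e at 0. The 4 endothelial markers lay between 2.11 and 495, and the 7 fibroblast markers between 0 (Col3a1) and 2220 (Pdgfra).

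The TEAD genes rose where Nfib was raised, and 3 of the 4 fell in at least 1 line where it was lowered, as did 35% of all 14504 genes tested there. In KP22 with Nfib cDNA all 4 TEAD genes rose, between 1.72-fold and 5.72-fold, where 19.5% of 17544 genes rose and 18.8% fell. Of the 7 neuroendocrine markers, 5 fell in KP22 in the authors' deposited table (Calca -1.71, Chga -1.04, Syp -0.86, Ncam1 -0.24 and Nkx2-1 -0.21), 1 rose (Insm1, 0.47) and Uchl1 was not called. Of the 5 non-neuroendocrine markers 1 rose there (Notch2) and 0 fell. In the knockdown lines, 3 of the 7 neuroendocrine markers rose and 3 fell in 16T, and 4 rose and 3 fell in KP1. Calca, Nkx2-1 and Syp rose in both lines, while Insm1 and Chga fell in both. The part of these marker changes in the rise of the TEAD genes was not tested. With the Nfib shRNA, Tead1 fell in both lines, Tead2 in KP1 and Tead4 in 16T. The target Amotl2 rose in KP1 and in KP22 and fell slightly in 16T. Wwtr1 fell in KP1, Yap1 and Cyr61 were not called in any of the 3 lines, and Ctgf was too low for an adjusted p in 16T and KP1 and not called in KP22.

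**Figure D1:**
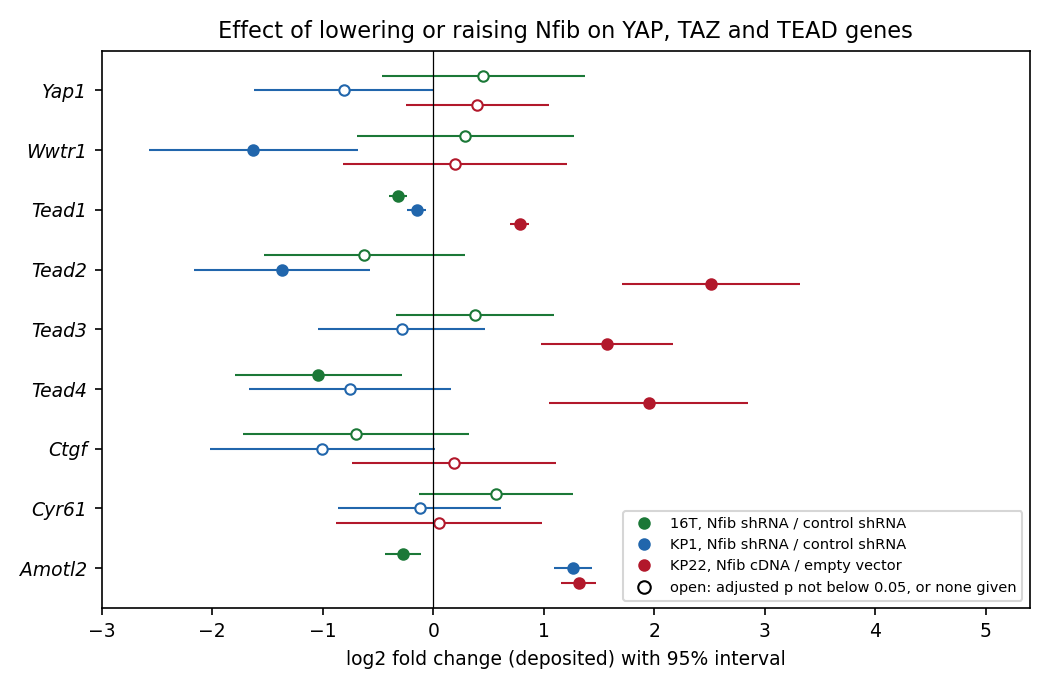
Deposited log2 fold changes of the 9 genes (rows) in 16T (green), KP1 (blue) and KP22 (red); lines are 95% intervals and filled points have an adjusted p below 0.05. The red points of all 4 TEAD genes lie right of 0, from 0.78 for Tead1 to 2.52 for Tead2, while no blue or green TEAD point right of 0 is filled.

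Levels were compared between genes per kb of exon, as the mean normalized count over all libraries divided by the length of the gene's own exon intervals. Tead1 stood at 1063 per kb, above 76.7% of the 19567 genes with a mean above 0, whose median was 233. Among the other TEAD genes Tead3 had 35.8, Tead2 28.7 and Tead4 17.5 per kb, so the level of Tead1 was between 29.7 and 60.8 times theirs. Yap1 had 29.9 per kb and Wwtr1 6.20, above 32.8% and 23.2% of genes. Of the targets, Amotl2 reached 463 per kb, Cyr61 27.2 and Ctgf 3.81. These are means over 3 lines in 6 groups, with no spread over samples, and levels within a single line cannot be read from them.

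**Figure D2:**
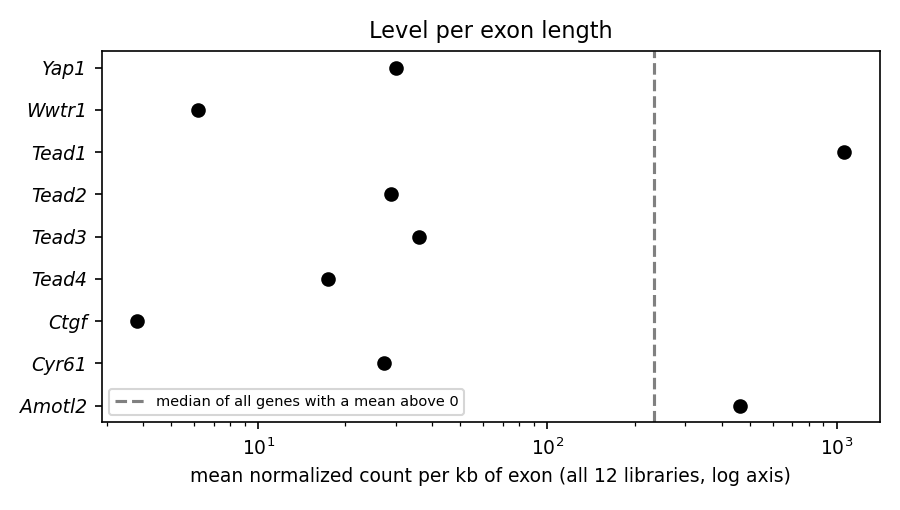
Mean normalized count per kb of exon on a log axis for the 9 genes (rows), over all 12 libraries; the dashed line is the median of all genes with a mean above 0. Tead1 (1063) and Amotl2 (463) lie above the median of 233 and the other 7 genes below it.

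The features of the coactivator genes Yap1 and Wwtr1 span chr9:7932001-8004596 (9 exon intervals) and chr3:57455644-57575257 (6 intervals), both on the minus strand of mm10. Positions here and below are extents of the intervals under the single gene name. They can leave out part of a gene, as at the annotated starts of Wwtr1 and Tead2. A separate feature whose name repeats Wwtr1 (mean 0.614) was too low for an adjusted p. Yap1 was measured at a mean of 125. In the authors' deposited table its log2 fold change was 0.45 ± 0.47 in 16T (adjusted p = 0.476), -0.81 ± 0.41 for KP1 (adjusted p = 0.122) and 0.40 ± 0.33 for KP22 (adjusted p = 0.388). Its 95% intervals ran from -0.47 to 1.37 in 16T, from -1.62 to -0.0038 in KP1 and from -0.25 to 1.05 in KP22, and the unadjusted p in KP1 was 0.0489. The opposite-strand gene Gm20416 overlaps 116 bases of the Yap1 exons, and no source used here states strand-specific counting, so their reads cannot be told apart there. Wwtr1, at a mean of only 27.7, fell in KP1 to 32.4% of the control level in the authors' deposited table (-1.63 ± 0.48, adjusted p = 0.00351). Its values in the authors' deposited table were 0.29 ± 0.50 in 16T (adjusted p = 0.687) and 0.20 ± 0.52 in KP22 (adjusted p = 0.829). The effects of the shRNA on Wwtr1 differed between 16T and KP1 by 1.92 ± 0.70 (adjusted p = 0.0233, computed from the deposited effects and SEs over 15008 genes). Of 5 markers of non-neuroendocrine cells, Vim and Cd44 fell as well in KP1 (-2.17 ± 0.18 and -0.75 ± 0.12) in the authors' deposited table, whereas Hes1 rose (0.96 ± 0.33), Notch2 was not called and Rest had no adjusted p. The part of such cells in the fall of Wwtr1 was not tested, and fewer cells of a type and less RNA per cell cannot be told apart in bulk samples.

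Tead1 to Tead4 encode the TEA domain factors, which bind DNA for YAP and TAZ. Tead1 (chr7:112679320-112906805, plus strand, 14 exon intervals) had by far the most reads of the family, at a mean of 10594. Per the authors' deposited table it fell to 80.3% of the control level in 16T (-0.32 ± 0.042, adjusted p = 9.05e-13). In KP1 the fall in the authors' deposited table was smaller, to 90.1% (-0.15 ± 0.042, adjusted p = 0.00172). With Nfib cDNA in KP22 it rose 1.72-fold (0.78 ± 0.043, adjusted p = 2.29e-71) in the authors' deposited table. Tead1 was thus called in all 3 lines, with opposite signs for shRNA and cDNA, though the call in KP1 was lost under a t reference with 6 degrees of freedom.

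Tead2 (chr7:45218081-45233619, plus strand, 10 intervals, mean 51.7) showed the largest fold in the family. In KP22 it rose 5.72-fold in the authors' deposited table (2.52 ± 0.41, adjusted p = 8.06e-09). A separate feature of the authors' deposited table whose name repeats Tead2 (mean 8.52) also rose in KP22 (2.23 ± 0.50, adjusted p = 4.53e-05). In KP1 Tead2 fell to 38.7% in the authors' deposited table (-1.37 ± 0.41, adjusted p = 0.0036), and in 16T its value was -0.62 ± 0.46 (adjusted p = 0.294). The 16T and KP1 effects on Tead2 did not differ past the threshold (difference 0.75 ± 0.62, 95% interval -0.46 to 1.95, adjusted p = 0.407).

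Tead4 (chr6:128227143-128300813, minus strand, 12 intervals, mean 53.8) fell in 16T to 48.6% in the authors' deposited table (-1.04 ± 0.39, adjusted p = 0.0193). In KP1 the authors' deposited table gave -0.75 ± 0.47 (adjusted p = 0.223), and the difference between the lines was -0.29 ± 0.60 (adjusted p = 0.787). In KP22 it rose 3.87-fold in the authors' deposited table (1.95 ± 0.46, adjusted p = 0.000122). Tead4 and Tead2 were therefore each called in a different knockdown line, without a difference between the lines that passed the test.

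Tead3 (chr17:28331673-28350805, minus strand, 15 intervals, mean 108) was called in KP22 only, where it rose 2.98-fold in the authors' deposited table (1.57 ± 0.30, adjusted p = 1.79e-06). Its knockdown values in the authors' deposited table were 0.38 ± 0.37 in 16T (adjusted p = 0.443) and -0.29 ± 0.39 in KP1 (adjusted p = 0.639). With the effects of the shRNA turned towards higher Nfib and averaged over both lines, Tead3 had -0.046, against 1.57 in KP22, and this difference of -1.62 ± 0.40 passed the test (adjusted p = 0.000321). The rise in KP22 also exceeded the turned knockdown mean for Tead1 (-0.55 ± 0.052, adjusted p = 4.88e-24) and for Tead2 (-1.52 ± 0.51, adjusted p = 0.0107). For Tead4 the difference was -1.05 ± 0.55 (adjusted p = 0.125), with a 95% interval from -2.13 to 0.024. Of the 15008 genes so compared, 36.7% differed between turned knockdown and cDNA, and 4 of the 8 members tested did, Amotl2 being the fourth. Nfib itself changed by -1.20 in the knockdown mean and by 1.80 in KP22, and these differences were not scaled for that.

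Ctgf and Cyr61 encode secreted matrix-associated proteins, now named Ccn2 and Ccn1, and are the most used readouts of YAP and TAZ activity. For Cyr61 (chr3:145646971-145649985, minus strand, 5 intervals, mean 55.1) the authors' deposited table gave 0.57 ± 0.35 for 16T (adjusted p = 0.197), -0.12 ± 0.38 for KP1 (adjusted p = 0.859) and 0.053 ± 0.48 for KP22 (adjusted p = 0.953). Its 95% interval in KP22, from -0.88 to 0.99, leaves room for a change of nearly 1 log2 unit either way. If fold changes of low features are shrunken towards 0, this interval may be too narrow. Ctgf (chr10:24595442-24598682, plus strand, 5 intervals) had a mean of 9.15, below the mean of 15.7 under which the authors gave no adjusted p in 16T and KP1. Its values in the authors' deposited table were -0.70 ± 0.52 and -1.003 ± 0.52 there, with unadjusted p of 0.18 and 0.0542, and 0.19 ± 0.47 in KP22 (adjusted p = 0.82). For the knockdown mean of both lines the authors' deposited table gave Ctgf -0.85 ± 0.37 (adjusted p = 0.0505). The opposite-strand gene Gm15270 shares exon bases with Ctgf, where reads cannot be told apart.

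Amotl2 encodes an angiomotin-like scaffold that binds YAP and is itself a target gene of YAP and TEAD. It lies at chr9:102717804-102733417 (plus strand, 10 intervals) and was measured at a mean of 1942. Per the authors' deposited table it fell to 82.8% in 16T (-0.27 ± 0.082, adjusted p = 0.00316). In KP1, with the same named shRNA, it rose 2.40-fold in the authors' deposited table (1.26 ± 0.09, adjusted p = 3.17e-43). In KP22, where Nfib was raised, the authors' deposited table gave a rise of 2.50-fold (1.32 ± 0.081, adjusted p = 1.18e-57). The 16T and KP1 effects differed by -1.54 ± 0.12 (adjusted p = 1.45e-34). Amotl2 thus moved one way where Nfib was lowered in KP1 and raised in KP22, and the turned knockdown mean lay 1.82 ± 0.10 below the KP22 effect (-0.50 against 1.32, adjusted p = 1.17e-69).

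Counted over the genes with an adjusted p, 3 of 8 fell in 16T (Tead1, Tead4, Amotl2) and 0 rose. Of all 14504 genes tested there, 45.3% were called and 25.3% fell. In KP1, 3 of 8 fell (Wwtr1, Tead1, Tead2) and 1 rose (Amotl2), where 37.2% of genes were called and 19.6% fell. These shares of called members are close to the shares over all genes. In KP22, 5 of 9 rose and 0 fell, where 38.4% of 17544 genes were called and 19.5% rose. A rise of at least 1 log2 unit in KP22 was seen in 4 of the 9 (Tead2, Tead3, Tead4, Amotl2) and in 2.88% of all genes. In the deposited knockdown mean of 16T and KP1, Tead1 (-0.23 ± 0.03), Tead2 (-0.996 ± 0.31) and Tead4 (-0.90 ± 0.30) fell and Amotl2 (0.50 ± 0.061) rose in the authors' deposited table, where 45.3% of 15483 genes were called. Tead1, Tead2 and Tead4 thus fell in the knockdown mean and rose in KP22, as did 10.3% of the genes tested in both. These comparisons share no samples. The effects in 16T and KP1 differed for 3 of 8 members (Wwtr1, Amotl2 and, by -0.17 ± 0.06, Tead1) and for 29.4% of all genes.

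**Figure D3:**
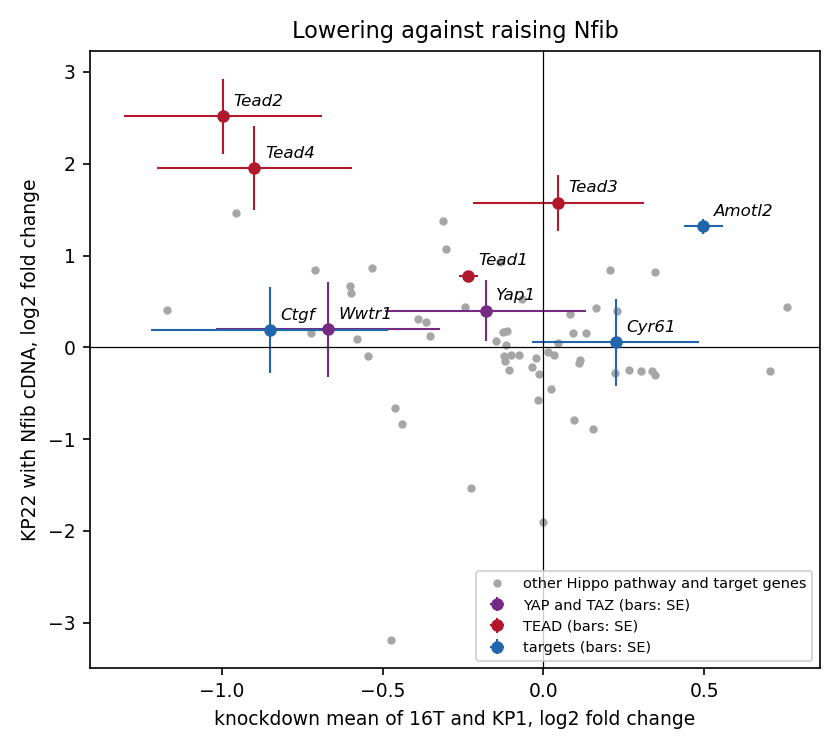
Deposited log2 fold change in the knockdown mean of 16T and KP1 (x) against KP22 with Nfib cDNA (y) for the 9 genes, with SE bars, and for the other Hippo pathway and target genes (grey). Tead2 and Tead4 lie at the upper left, at -0.996 and -0.90 on x, and Amotl2 at the upper right at 0.50 and 1.32.

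When the ratio of effect to SE was read against a t reference (6 degrees of freedom), only Tead1 kept its call in 16T and only Amotl2 in KP1. The falls of Tead4 and Amotl2 in 16T and of Wwtr1, Tead1 and Tead2 in KP1 thus depend on the normal reference. All 5 rises in KP22 kept their calls. After recentring effects on the median gene (shifts of at most 0.051), the difference of Tead1 between 16T and KP1 was -0.14 and no longer called.

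The promoters were searched for the TEAD motif GGAATG and for the NFI site TTGGC, each on both strands, over 250 bases before and 50 after the annotated starts (RefSeq, GRCm38.p6, the assembly of mm10). Entries were found for 6 of the 9 genes, in 9 windows, and not for Tead1, Tead4 and Ctgf. The TEAD motif was in a window of 5 of the 6 (Yap1, Wwtr1, Tead3, Cyr61 and Amotl2, not Tead2), against 16.6% of 27025 genes and 14.7% of 32851 windows. The NFI site was in those of 3 (Yap1, Tead3 and Cyr61), against 50.4% of genes. Such matches are a description of letters, not of bound sites. The stretches outside annotated exons are printed for a gene that rose in KP22 (Tead3), a gene that fell in KP1 (Wwtr1) and a gene called in no line (Cyr61), since the same motif stands in all 3. They read 5′ to 3′ on the gene's strand, with the TEAD motif or its reverse complement in capitals. It begins 182 bases before annotated start 1 of Tead3 (chr17:28350818-28351055, minus strand) and 136 before start 1 of Wwtr1 (chr3:57575911-57576160, minus strand). In Cyr61 (chr3:145649986-145650235, minus strand) it begins 103 before the start. The same Wwtr1 motif lies 170 bases before start 2. For Tead3, the window of start 2 held 3 TEAD motifs and that of start 3 held 0, and these windows are not printed.
Tead3: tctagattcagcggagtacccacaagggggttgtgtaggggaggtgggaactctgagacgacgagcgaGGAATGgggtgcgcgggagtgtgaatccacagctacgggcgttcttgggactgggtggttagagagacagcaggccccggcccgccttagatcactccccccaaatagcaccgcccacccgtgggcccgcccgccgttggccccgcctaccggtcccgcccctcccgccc
Wwtr1: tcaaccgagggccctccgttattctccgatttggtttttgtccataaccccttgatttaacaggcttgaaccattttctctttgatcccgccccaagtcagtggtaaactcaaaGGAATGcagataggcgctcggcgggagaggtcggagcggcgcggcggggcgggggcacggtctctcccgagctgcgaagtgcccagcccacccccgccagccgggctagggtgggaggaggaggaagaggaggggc
Cyr61: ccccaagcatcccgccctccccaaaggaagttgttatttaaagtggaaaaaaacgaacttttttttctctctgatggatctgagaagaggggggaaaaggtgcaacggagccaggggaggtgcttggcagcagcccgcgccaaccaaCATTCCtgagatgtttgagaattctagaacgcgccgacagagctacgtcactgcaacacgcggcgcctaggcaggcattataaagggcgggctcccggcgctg

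Tead1 and Amotl2 were the members with a mean of at least 100 that were called in 2 or more lines, and the genes most like them were sought among 12287 genes of that mean by the Euclidean distance of the 3 log2 fold changes. Nearest to Tead1 were Zkscan4 (distance 0.06), Sh2d5 (0.062) and Rttn (0.075). Zkscan4, at a mean of 109, had -0.26 ± 0.30 (16T), -0.13 ± 0.29 (KP1) and 0.80 ± 0.29 (KP22) in the authors' deposited table. Its SEs thus exceeded its values in both knockdown lines. For Sh2d5, at a mean of 3897, the authors' deposited table gave -0.29 ± 0.072 (16T), -0.15 ± 0.07 (KP1) and 0.73 ± 0.065 (KP22). The genes nearest to Amotl2 were Fli1 (0.38), Mpped1 (0.38) and Taf9b (0.49). For Fli1, an ETS transcription factor gene, the authors' deposited table gave -0.42 ± 0.17 (16T), 1.08 ± 0.17 (KP1) and 1.61 ± 0.25 (KP22). All these values share the same libraries.

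The rest of the pathway was read from 4 lists, whose counts stand beside calls of 45.3%, 37.2% and 38.4% over all genes in 16T, KP1 and KP22. In the kinase cascade and its upstream regulators (15 genes), 3 of 13 tested rose and 4 fell in 16T, 3 and 2 of 13 in KP1, and 4 and 2 of 15 in KP22. The medians in the authors' deposited table were -0.0098, -0.11 and -0.046, beside -0.051, -0.017 and 0.039 over all genes tested. Lats1, a kinase that phosphorylates YAP, was not called, with 0.032 ± 0.047, 0.057 ± 0.048 and 0.046 ± 0.048 for 16T, KP1 and KP22 in the authors' deposited table. The upstream scaffold gene Frmd6 rose in all 3 lines in the authors' deposited table (0.77 ± 0.13, 0.75 ± 0.13 and 0.44 ± 0.13 in 16T, KP1 and KP22). Map4k4, a kinase that can activate LATS, fell in 16T (-0.27 ± 0.034) and KP1 (-0.43 ± 0.033) and rose in KP22 (0.13 ± 0.034) in the authors' deposited table. Wwc1, the gene of the scaffold KIBRA, had the same order of signs as Amotl2 in the authors' deposited table (-0.22 ± 0.074, 0.38 ± 0.075 and 0.36 ± 0.071).

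Of 13 adaptors and inhibitors of YAP and TEAD, 2 of 9 tested rose and 2 fell in 16T, 1 and 3 of 9 in KP1, and 5 and 2 of 11 in KP22. Their medians in the authors' deposited table were -0.14, -0.079 and 0.18. The angiomotin genes, relatives of Amotl2, parted in KP22: Amot rose (1.38 ± 0.089) and Amotl1 fell (-3.19 ± 0.12) in the authors' deposited table. In the knockdown lines Amot fell in 16T (-0.62 ± 0.087) and Amotl1 in KP1 (-1.01 ± 0.096) in the authors' deposited table. Wtip rose in 16T (0.71 ± 0.21) in the authors' deposited table and was not called in KP1 or KP22. The TEAD cofactor gene Vgll4 fell in KP1 (-0.47 ± 0.13) and rose in KP22 (0.31 ± 0.12) in the authors' deposited table, which also has a rise of the phosphatase gene Ptpn14 in KP22 (1.08 ± 0.29). The casein kinase gene Csnk1e was higher in all 3 lines in the authors' deposited table, each past the threshold (0.11 ± 0.041, 0.15 ± 0.041 and 0.16 ± 0.041).

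Of 16 polarity genes and protocadherin inputs, 15 were in the table. In 16T 2 of 14 tested rose and 7 fell, in KP1 1 and 7 of 14, and in KP22 5 and 2 of 15, beside falls of 25.3% and 19.6% of all genes in 16T and KP1 and rises of 19.5% in KP22. Their values had medians of -0.33, -0.20 and -0.094 in the authors' deposited table. Scrib fell in both knockdown lines (-0.33 ± 0.04 and -0.16 ± 0.04) and rose in KP22 (0.43 ± 0.041) in the authors' deposited table. Llgl1, a further basolateral polarity gene, did likewise in the authors' deposited table (-0.33 ± 0.057, -0.39 ± 0.057 and 0.28 ± 0.058). So did Fjx1, which is also listed as a YAP target (-0.68 ± 0.21, -0.73 ± 0.20 and 0.84 ± 0.23 in the authors' deposited table). Dlg1 went the other way in the authors' deposited table (0.17 ± 0.065, 0.51 ± 0.065 and -0.26 ± 0.065), and the protocadherin gene Fat1 fell in all 3 lines (-0.65 ± 0.064, -0.23 ± 0.066 and -0.83 ± 0.064). Its relatives Fat3 and Fat4 fell in KP1 (-1.95 ± 0.27 and -1.87 ± 0.21), and Fat3 rose in KP22 (1.47 ± 0.29), by the authors' deposited table. Pard3 fell in 16T (-0.55 ± 0.087) and KP1 (-0.54 ± 0.087) in the authors' deposited table and was not called in KP22.

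Of 19 further genes known as YAP and TAZ targets, 3 of 13 tested rose and 3 fell in 16T, 3 and 8 of 13 in KP1 (falls over all genes 19.6%), and 4 and 5 of 18 in KP22. The medians in the authors' deposited table were 0.03, -0.62 and 0.025. Fjx1, Ptpn14 and Lats2 of this list are also in the lists above. Ankrd1 and Axl, commonly used as readouts of YAP, had means of only 0.163 and 2.82 in the authors' deposited table. Falls in KP1 in the authors' deposited table included Igfbp3 (-1.32 ± 0.36), Tgfb2 (-1.14 ± 0.12), Dock5 (-1.10 ± 0.18), F3 (-1.02 ± 0.19) and Gadd45a (-0.996 ± 0.084). Rbms3 rose in KP1 (0.89 ± 0.28) in the authors' deposited table. F3, the gene of tissue factor, rose in 16T (1.48 ± 0.18), and so did Nt5e, the gene of CD73 (2.03 ± 0.20), which fell in KP1 (-0.62 ± 0.11) in the authors' deposited table. Asap1 was called in all 3 lines of the authors' deposited table (-0.18 ± 0.06, 0.15 ± 0.06 and -0.58 ± 0.06). In KP22 Ccdc80 (-1.90 ± 0.51, at a mean of only 14.9), Arhgef17 (-1.53 ± 0.088), Crim1 (-0.89 ± 0.08) and Dock5 (-0.66 ± 0.13) fell in the authors' deposited table. Nuak2 (0.85 ± 0.084) and Tgfb2 (0.86 ± 0.30) rose there. In KP1 Arhgef17 fell (-0.48 ± 0.075) and Nuak2 rose (0.52 ± 0.089) in the authors' deposited table. Arhgef17, Nuak2 and Dock5 thus moved the same way in KP1 and KP22. Tgfb2 moved opposite ways in KP1 and KP22, and Crim1 rose in 16T (0.22 ± 0.075). Over all genes tested in KP22, 19.5% rose and 18.8% fell, beside 4 and 5 of these 18 targets. Outside the 9 members, 10 of 50 genes of these lists fell in the knockdown mean and rose in KP22, beside 10.3% of all genes: Map4k4, Amot, Vgll4, Limd1, Fat3, Dchs1, Fjx1, Scrib, Llgl1 and Tgfb2.

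**Figure D4:**
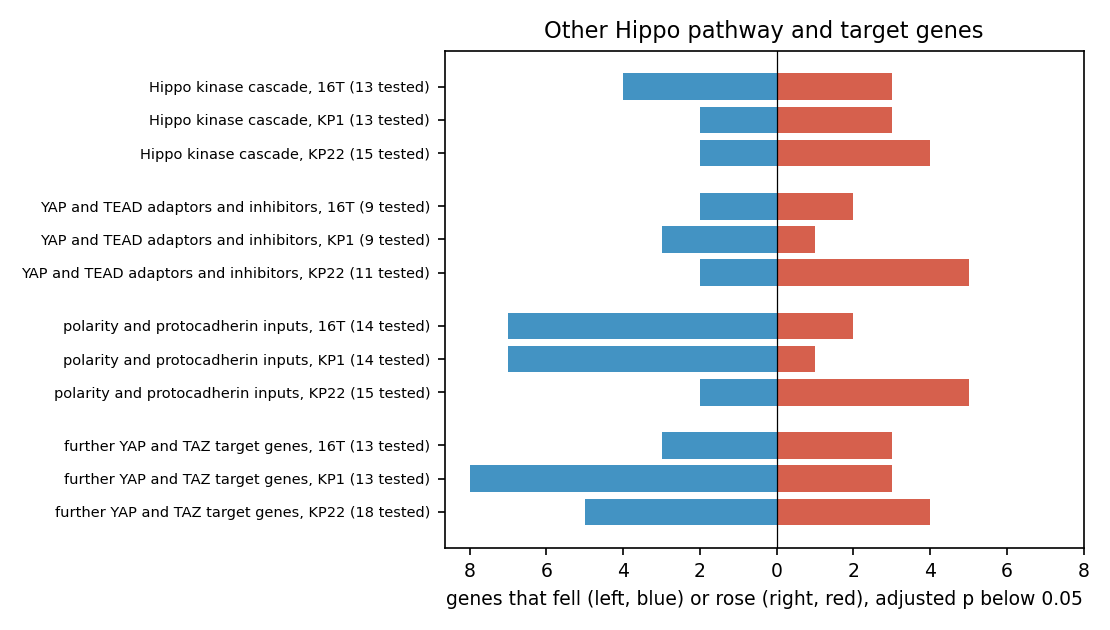
Number of genes of 4 lists that fell (left, blue) or rose (right, red) at an adjusted p below 0.05 in 16T, KP1 and KP22, with the number tested. Polarity and protocadherin inputs had 7 falls in each knockdown line and 5 rises in KP22, and further target genes had 8 falls in KP1.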

How the data were processed

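RNA was sequenced in 12 samples of 3 cell lines, 2 in each of 6 groups. The submitters' processing notes name DESeq, DESeq2, TopHat and bedtools, and build mm10; no version or setting is stated there. Per the file headers, the authors deposited 1 mean normalized count per feature (a signal over all libraries), and log2 fold changes with SEs on the log2 scale, p-values and adjusted p-values for 4 comparisons; the name of the table mentions cqn normalization. Another deposited list gives merged RefSeq exon intervals (starts and ends, other values), which supplied lengths. The largest SE was 0.521 in each of 16T, KP1 and KP22. Ankrd1, at a mean of 0.163, had SEs of only 0.157 to 0.192. The fold changes and SEs of low features may thus be shrunken towards 0. Folds of Yap1, Wwtr1, Tead2, Tead3, Tead4, Ctgf and Cyr61 may be understated, and their intervals too narrow, also where a gene was not called. Counts per kb were not corrected further.

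Calls are the authors' deposited adjusted p-values below 0.05; recomputing the Benjamini-Hochberg adjustment over the features they adjusted gave the same values within 1.50e-12. Differences between comparisons, which share no samples, were computed from the deposited effects, with SEs added as independent, a normal reference, and adjustment over genes with 1 name and a mean of at least 10 (Ctgf lies below it). Alternatives were the deposited test against 0.5, a t reference (6 degrees of freedom), recentring, a change of at least 1, and other filters on the mean. The genes named are the 9 members, list genes called in all 3 lines, and some list genes with large called changes. Not every list gene with a large called change is named. Also named are the 3 nearest genes of members that had a mean of at least 100 and were called in 2 or more lines. Lats1, Ankrd1, Axl, Crim1, Limd1, Dchs1 and the markers were added after their values were seen. Some listed genes are not reported here and were left out of the list counts. Members and lists were chosen with earlier results of these data known. Python 3.11.15, scipy 1.17.1 and pandas 2.3.3 were used.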

Additional observations from a re-analysis of the deposited data

Results flagged for a closer look

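Some members' effects differed between lines under the same or the opposite manipulation, by the test of the difference described above. Between the shRNA effects in 16T and KP1, the difference (16T minus KP1) was 1.92 for Wwtr1, -0.17 for Tead1 and -1.54 for Amotl2. Between the knockdown mean turned towards higher Nfib and the cDNA effect in KP22, it was -0.55 for Tead1, -1.52 for Tead2, -1.62 for Tead3 and -1.82 for Amotl2. For Tead1 and Tead2 both manipulations had the same sign after turning and differed in size, whereas for Amotl2 the signs were opposite. The change of Nfib also differed in size, at -1.20 in the knockdown mean and 1.80 in KP22, and effects were not scaled to it. For Tead3 the turned knockdown mean was -0.046, and Tead3 was not called in the deposited knockdown mean. Cell line and type of vector cannot be told apart in the second set, since the cDNA was used in KP22 alone.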

How the results depend on the processing

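No paired analysis was possible because the deposited table holds no values per sample; for the same reason the fits without each replicate were not run. The authors' deposited test against 0.5 called 0 members in 16T and 1 in KP1 (Amotl2), against 3 and 4 in their test against no change; 3 members in 16T had an unadjusted p below 0.05 in the latter. Read against a t reference (6 degrees of freedom), 1 member was called in 16T (Tead1), 1 in KP1 (Amotl2) and 1 as differing between 16T and KP1 (Amotl2, against 3). Asking for a change of at least 1 left 1 member in 16T (Tead4). In KP22 the count of 5 was kept by the test against 0.5, the t reference and recentring, and was 4 with a change of at least 1. The count of members differing between knockdown and KP22 (4) stayed between 3 and 4 under all alternatives run; Tead2 was lost with the t reference and, by its mean, under a filter of at least 100. No effect changed sign where it was called. The precision is limited by low means: Yap1, Wwtr1, Tead2, Tead3, Tead4, Ctgf and Cyr61 had SEs between 0.30 and 0.52, against 0.042 to 0.09 for Tead1 and Amotl2.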
